A study of Mus musculus with 8 samples.

Results

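The ubiquitin-specific proteases, the largest family of deubiquitinating enzymes, were followed in mouse embryonic stem cells after knockdown of the RNA helicase eIF4A2. Members were taken by gene symbol (Usp, a number and an optional x), a rule that used no measured value, and gave 48 genes of the 13838 in both tables together. Of these, 47 were in the table of ribosome footprints and 48 in the table of total RNA, Usp49 being in the total RNA table only. All 47 and all 48 passed the filter on low values. The Usp17l copies, which carry a letter after the number, are not members.

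The cells were J1 embryonic stem cells of strain 129S4/SvJae. They were grown without feeders in serum and leukemia inhibitory factor, which all groups share. Each library came from cells infected with eIF4A2 shRNA (named sheIF4A2-2 and sheIF4A2-3) or with control shRNA (shNT and shGFP). Selection in 1 μg/mL puromycin ran for 3 days, and cells were taken on day 4.5 after 1 min in 0.1 mg/mL cycloheximide, which holds ribosomes on mRNA. Ribosome-protected fragments (footprints) and total RNA were sequenced in 2 biological replicates per condition, which makes 8 libraries in 4 groups. The labels do not tie a replicate to one of these shRNAs. A knockdown is partial, and both shRNA arms went through the same viral infection and drug selection.

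Ubiquitin is joined to proteins by a chain of activating, conjugating and ligating enzymes and is removed again by deubiquitinases. Ubiquitin-specific proteases are cysteine proteases of the latter kind. They differ in the proteins they bind, and so in whether they edit histones, rescue signalling proteins from the proteasome, recycle free ubiquitin or act on endosomes. Many work in complexes with a partner protein, such as Wdr48 with Usp1, Usp12 and Usp46. In stem cells several of them act on histone ubiquitin marks or on transcription factors that hold or release the undifferentiated state.

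Depth was between 7947827 and 12840349 reads per library, read back from the deposited values. Levels are given in CPM, reads per gene scaled to the library size the authors used. Eif4a2 footprints were 311 and 153 CPM in the knockdown libraries and 395 and 409 in the control libraries, and its total RNA was 583 and 617 against 739 and 969 CPM. The knockdown libraries were below the control libraries in both assays. limma did not call the gene (adjusted p = 0.273 in footprints and 0.29 in total RNA). All 8 embryonic stem cell markers were in both tables, with a summed footprint level of 4300 to 4399 CPM in the knockdown and 6151 to 6453 in the control, and a summed total RNA level of 3887 to 3922 against 5241 to 5984 CPM. Of 8 fibroblast markers 4 were in each table, with sums between 11.1 and 25.5 CPM per library, and Col3a1, Postn, Twist2 and Lum were in neither. Primitive endoderm markers (5 of 6 in footprints, 4 of 6 in total RNA) summed to 13.8 to 19.4 CPM in footprints, and in total RNA to 14.0 to 14.4 CPM in the knockdown against 6.65 to 10.4 in the control. In bulk samples fewer cells of a type and less RNA per cell cannot be told apart. The part that these marker levels have in the results below was not tested.

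Fold changes of the family centred near 0. In footprints 25 of 47 members had a positive log2 fold change (knockdown minus control on the log2(CPM + 1) scale), where 50.6% of all genes had one. The members' median was 0.02, beside 0.01 over all 12723 genes tested. In total RNA 25 of 48 were positive (49.7% of all genes), with a median of 0.02 beside -0.00 over all 13436 genes. On this scale no member exceeded 1 in size in either assay, and the extremes were -0.64 for Usp28 and 0.58 for Usp29 in footprints, and -0.50 for Usp28 and 0.57 for Usp25 in total RNA. The added 1 CPM shrinks the values of low genes: from the CPM means, footprints of Usp29 were 2.22 times control, and those of Usp26 and Usp43 were 53.7% and 55.4% of control, below the 63.9% of Usp28. Values over 0.5 in size were held by 7 of 47 members in footprints (14.9%, and 18.3% of all genes) and by 2 of 48 in total RNA (4.17%, and 14.7% of all genes).

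limma called 0 members in footprints and 0 in total RNA at an adjusted p of 0.05, where it called 0 of all genes too (0% in each assay). At an unadjusted p of 0.05 there were 3 members of 47 in footprints (all genes 12.9%), 1 higher (all genes 6.12%) and 2 lower (6.74%). In total RNA there were 8 of 48 (all genes 14.9%), 6 higher (6.82%) and 2 lower (8.08%). edgeR's quasi-likelihood test and DESeq2, run on total RNA reads, each called 0 members at an adjusted p of 0.05. Over all genes edgeR called 0 (0%), whereas DESeq2 called 272 of 13436 (2.02%). The authors' deposited table lists 0 members with an FDR below 0.05 in footprints (all genes 1.68%) and 0 in total RNA (all genes 5.4%). With 2 libraries against 2, an exact permutation test of a single gene cannot pass the threshold. The p-values here come from a model that shares the spread between genes.

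In footprints both knockdown libraries lay above both control libraries for 18 of 47 members (38.3%, and 22.3% of all genes), and below them for 10 (21.3%, and 22.5% of all genes). In total RNA the counts were 16 of 48 above (33.3%, and 23.3% of all genes) and 9 below (18.8%, and 24.6% of all genes). Across both assays 13 of 47 members were above control in every library (27.7%, and 12.3% of 12358 genes) and 5 were below (10.6%, and 12.4%). The 13 were Usp3, Usp4, Usp10, Usp12, Usp19, Usp24, Usp27x, Usp33, Usp34, Usp35, Usp36, Usp40 and Usp47, and the 5 were Usp1, Usp2, Usp11, Usp28 and Usp39. No test of these shares was run, and genes of a library vary together.

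**Figure D1:**
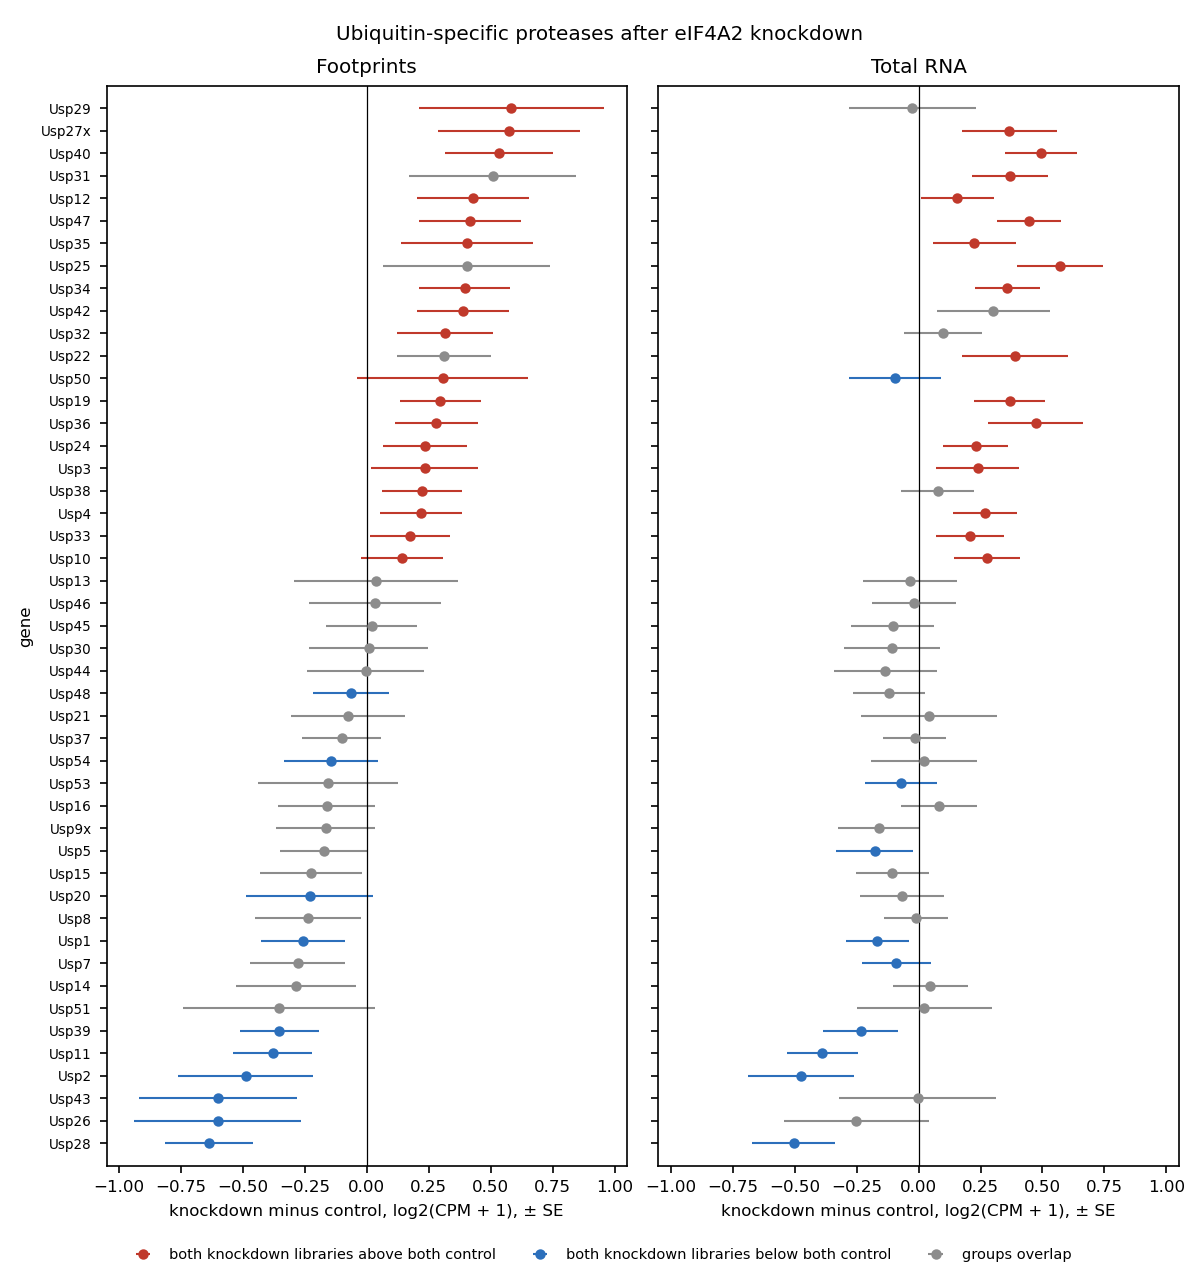
Each row is one of the 47 members in both tables, and each point is its knockdown minus control difference on the log2(CPM + 1) scale with its standard error (2 libraries per group), in footprints on the left and total RNA on the right. Red and blue mark members whose knockdown libraries are both above or both below the control libraries. The rows run in order of the footprint value, from -0.64 for Usp28 to 0.58 for Usp29.

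Usp9x, the X-linked member named for its fly relative fat facets and known to spare Mcl1 from degradation and to remove an inhibitory ubiquitin from Smad4, had the highest CPM of the family. Its length was not corrected for, so this says nothing of its level against shorter genes. Footprints of Usp9x were 538 and 741 CPM in the knockdown and 720 and 697 CPM in the control. Replicate 1 of the knockdown was low, replicate 2 was the highest of the 4, and the groups overlapped. Total RNA of Usp9x was 944 and 992 CPM in the knockdown and 979 and 1193 CPM in the control, again with overlap. In each assay the difference between the means was smaller than the larger of the SDs within a group.

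Means for Usp9x were 639.6 ± 143 against 709 ± 16.6 CPM in footprints, 90.2% of control, and 968 ± 33.5 against 1086 ± 151 CPM in total RNA, 89.1% of control (SD, n = 2). The log2 fold changes were -0.17 ± 0.20 (SE) in footprints (limma adjusted p = 0.771) and -0.16 ± 0.17 in total RNA (adjusted p = 0.703). The footprint values rested on 4783 to 7083 reads. Without footprint knockdown replicate 1 the footprint value was 0.06, the opposite direction, and without knockdown replicate 2 it was -0.40. Without total RNA control replicate 1 the total RNA value was -0.30, and without control replicate 2 it was -0.017. The Y-linked copy Usp9y, whose sequence is close to that of Usp9x, was in the total RNA table only, at 5 to 16 reads per library.

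Of 6 measured genes known as Usp9x substrates, 0 passed the test in either assay (limma), where 0% of all genes passed it. In footprints 5 of the 6 were positive (50.6% of all genes), with a median of 0.06 and a range of -0.15 to 0.39. In total RNA 4 were positive (49.7% of all genes), with a median of 0.10 and a range of -0.11 to 0.29. Neither assay measures protein level. Mcl1, an anti-apoptotic protein with a short life, had footprints of 446 and 337 CPM in the knockdown against 293 and 296 CPM, while its total RNA overlapped (means of 499.5 and 549 CPM). The log2 fold change of Mcl1 was 0.39 ± 0.18 in footprints (adjusted p = 0.419) and -0.11 ± 0.20 in total RNA (adjusted p = 0.836). Smad4, the shared mediator of TGF-β and BMP signals, had 0.33 ± 0.17 in footprints and 0.14 ± 0.14 in total RNA. Itch, a ubiquitin ligase, had 0.06 ± 0.18 and 0.29 ± 0.13.

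**Figure D2:**
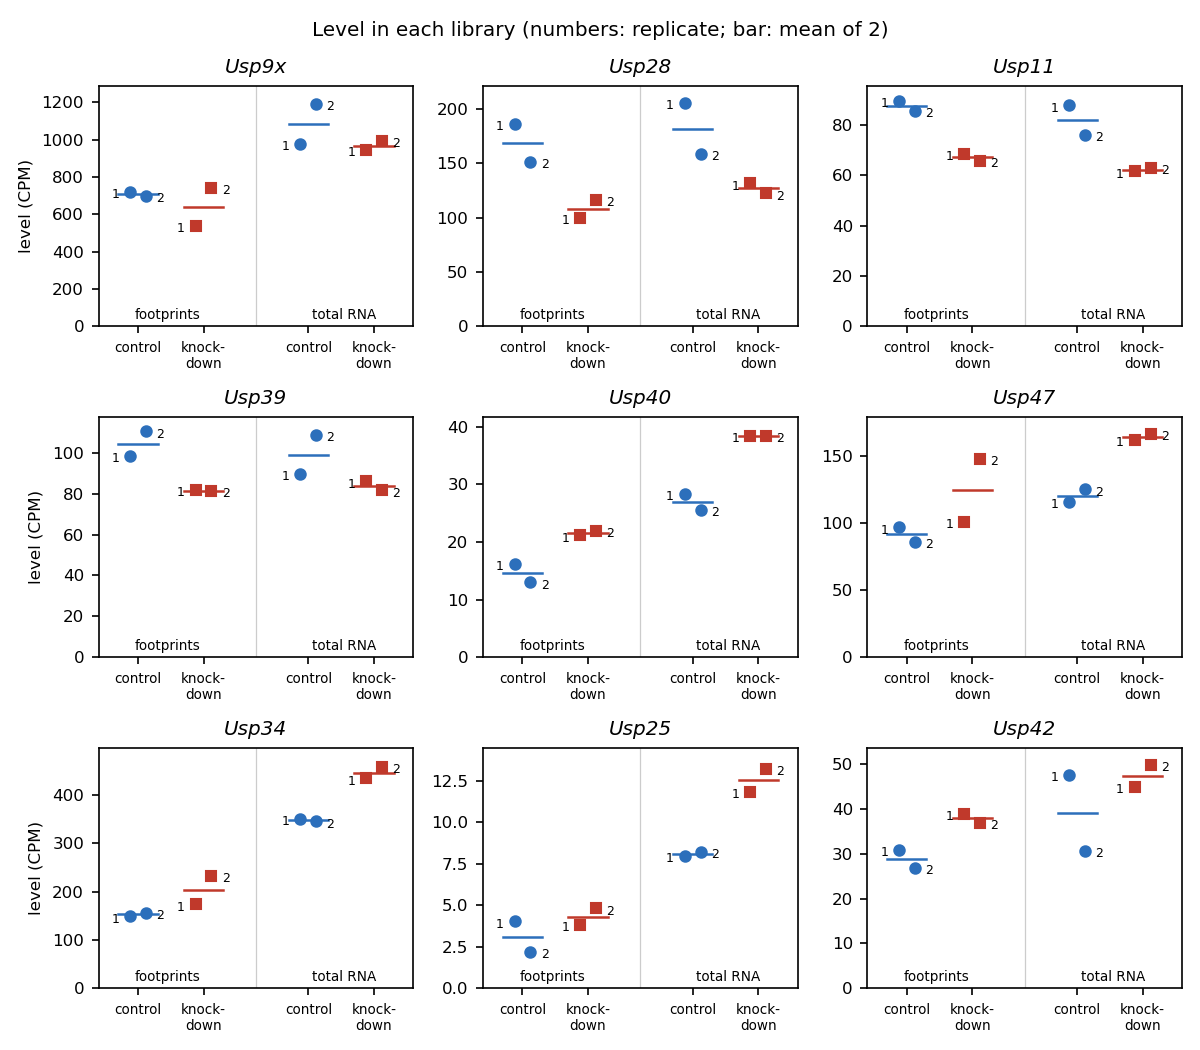
Each panel gives 1 gene's level in CPM on an axis from 0, with footprints on the left and total RNA on the right, control in blue circles and knockdown in red squares. Numbers give the replicate and bars the mean of 2 libraries. Usp28, Usp11 and Usp39 are below control in every knockdown library and Usp40, Usp47 and Usp34 above it, whereas the Usp9x groups overlap.

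Usp28 had the lowest log2(CPM + 1) fold change of the family in both assays, although as a percent of control Usp26 and Usp43 in footprints and Usp2 in total RNA (68.3%) were lower. It stabilises Myc against the ligase Fbw7 and takes part in the response to DNA breaks. Its footprints were 99.7 and 116 CPM in the knockdown and 187 and 151 CPM in the control, and its total RNA was 132 and 122 against 206 and 159 CPM. Every knockdown library was below every control library, and control replicate 1 was the highest in each assay. Footprints were 63.9% of control (log2 fold change -0.64 ± 0.18, limma adjusted p = 0.216) and total RNA was 69.8% (-0.50 ± 0.17, adjusted p = 0.262). The sign held under each of the 12 alternatives in footprints and the 14 in total RNA. Several of these, such as the replicate block or no filter, leave the value unchanged by design. Groups that do not overlap also keep their sign when 1 library is left out, so these counts are no independent check. Without total RNA control replicate 1 its total RNA value was -0.32, and without control replicate 2 it was -0.69.

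Usp11, an X-linked enzyme that works with the repair protein Brca2, was lower in every knockdown library as well. Its footprints were 68.3 and 65.8 against 89.4 and 85.6 CPM, and its total RNA was 61.5 and 62.7 against 87.7 and 75.9 CPM. The difference was nearly the same in both assays, at -0.38 ± 0.16 in footprints (adjusted p = 0.365) and -0.39 ± 0.14 in total RNA (adjusted p = 0.292). Usp39, a member that has lost protease activity and serves in the spliceosome, had footprints of 81.7 and 81.2 against 98.6 and 110 CPM (-0.35 ± 0.16, adjusted p = 0.402). Its total RNA was 86.0 and 81.6 against 89.5 and 109 CPM (-0.23 ± 0.15, adjusted p = 0.52), a value that was -0.37 without control replicate 1 and -0.09 without replicate 2.

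Usp40 was above control in every knockdown library, with nearly equal knockdown values in each assay. Its footprints were 21.2 and 21.9 CPM in the knockdown against 16.3 and 13.0 CPM, and its total RNA was 38.4 in both knockdown libraries against 28.3 and 25.6 CPM. Footprints were 147% of control (0.54 ± 0.22, limma adjusted p = 0.352) and total RNA 142% (0.50 ± 0.15, adjusted p = 0.211). Usp47, which acts on DNA polymerase beta in base excision repair, had footprints of 101 and 148 against 97.1 and 86.3 CPM, so that knockdown replicate 1 was only just above the control. Its total RNA was well apart, at 162 and 167 against 116 and 125 CPM (0.45 ± 0.13, adjusted p = 0.21), beside 0.42 ± 0.21 in footprints (adjusted p = 0.442). The footprint value of Usp47 was 0.69 without knockdown replicate 1 and 0.14 without replicate 2.

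Usp34, a very large enzyme that acts on axin in Wnt signalling, had footprints of 174 and 233 against 149 and 157 CPM (0.39 ± 0.18, adjusted p = 0.417), with 0.60 without knockdown replicate 1 and 0.19 without replicate 2. Its total RNA was 435 and 458 against 350 and 346 CPM (0.36 ± 0.13, adjusted p = 0.293). Usp25, a paralog of Usp28 known from innate immune signalling, had total RNA of 11.8 and 13.2 against 7.99 and 8.21 CPM, the highest fold change of the family in that assay (0.57 ± 0.17, adjusted p = 0.222). Its footprints rested on only 22 to 46 reads per library and overlapped, at 3.83 and 4.81 against 4.04 and 2.18 CPM (0.40 ± 0.34, adjusted p = 0.66), with 0.74 without control replicate 1 and 0.073 without replicate 2. The paralogs Usp25 and Usp28 thus had fold changes of opposite sign in both assays, and the difference between them was not tested. Usp42, a p53 deubiquitinase, had footprints of 38.8 and 36.9 against 30.8 and 26.8 CPM (0.39 ± 0.19, adjusted p = 0.431), but its total RNA overlapped, since control replicate 1 was at 47.5 CPM between the knockdown values of 44.8 and 49.8.

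The promoters of 2 lower and 2 higher genes, chosen after their values were seen, are shown to let their base composition be compared. RefSeq promoter entries (GRCm38.p6) matched 37 of the 48 members. Each line gives the 250 bases before the start site on the gene's strand, with motif matches in capitals. The GC box was searched as GGGCGG and the CCAAT box by those letters. The TATA box was searched as TATAAA. The ETS site was searched as CCGGAAG, the cyclic AMP response element (CRE) as TGACGTCA and the E-box as CACGTG. All were searched on both strands.
Usp28: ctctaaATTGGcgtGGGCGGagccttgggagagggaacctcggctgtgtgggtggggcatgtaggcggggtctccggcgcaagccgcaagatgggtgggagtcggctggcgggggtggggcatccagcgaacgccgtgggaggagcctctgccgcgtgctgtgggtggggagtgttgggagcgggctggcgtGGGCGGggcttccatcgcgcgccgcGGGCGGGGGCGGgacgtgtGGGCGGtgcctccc
Usp11: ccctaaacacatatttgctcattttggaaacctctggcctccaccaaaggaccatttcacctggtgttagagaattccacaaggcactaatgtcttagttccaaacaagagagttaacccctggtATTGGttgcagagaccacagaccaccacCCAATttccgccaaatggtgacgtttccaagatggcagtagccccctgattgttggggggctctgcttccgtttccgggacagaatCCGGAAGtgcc
Usp40: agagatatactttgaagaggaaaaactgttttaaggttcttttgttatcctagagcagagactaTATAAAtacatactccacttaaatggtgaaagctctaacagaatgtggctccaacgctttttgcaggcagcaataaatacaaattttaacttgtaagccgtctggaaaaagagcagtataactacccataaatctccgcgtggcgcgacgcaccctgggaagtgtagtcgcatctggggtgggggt
Usp47: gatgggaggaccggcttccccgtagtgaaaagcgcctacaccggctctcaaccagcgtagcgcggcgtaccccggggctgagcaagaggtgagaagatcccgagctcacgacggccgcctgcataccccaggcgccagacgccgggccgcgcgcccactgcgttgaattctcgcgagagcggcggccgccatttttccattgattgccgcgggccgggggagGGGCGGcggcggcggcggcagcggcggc
Usp28 (chr9:48985135-48985384, plus strand) had 5 GC boxes, 1 CCAAT match, 26 CpG sites and 73.2% G and C. Usp47 (chr7:112023256-112023505, plus strand) had 1 GC box, 35 CpG sites and 71.2%. Usp11 (chrX:20703659-20703908, plus strand) had 2 CCAAT matches and 1 ETS match with only 5 CpG sites, and Usp40 (chr1:88008552-88008801, minus strand) had 1 TATAAA match with 8 CpG sites and 42% G and C. The lower pair and the higher pair thus each held a CpG-rich and a CpG-poor promoter. Of the 37 promoters 25 held a GC box (67.6%), against 60.8% of 10211 promoters of genes in the total RNA table and 32.7% of all 32851 promoters, and 8 held CCAAT (21.6%, against 36.8% and 33.8%). TATAAA was in 2 (5.41%, against 5.95% and 12.4%), the ETS site in 7 (18.9%, against 13.9% and 6.91%) and the E-box in 3 (8.11%, against 8.76% and 6.02%). The CRE was in 0 of the 37 (against 2.75% and 1.55%). A match describes letters only.

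Of the members that act on histones, 0 of 8 passed the test in footprints and 0 of 9 in total RNA (0% of all genes in each). Their medians were -0.04 and 0.08. Usp22, the H2B deubiquitinase of the SAGA coactivator, had total RNA of 169 and 191 against 167 and 112 CPM (0.39 ± 0.21) and footprints that overlapped (0.31 ± 0.19). Its small X-linked paralog Usp27x had footprints of 6.98 and 6.17 against 4.78 and 3.47 CPM (0.57 ± 0.29) and total RNA of 8.52 and 10.4 against 6.62 and 7.54 CPM (0.37 ± 0.19). Usp51, the third of that group, was at 0.523 to 1.69 CPM in footprints with overlap. Usp44, studied in stem cells for its action on H2B, had values near no change (-0.00 ± 0.24 and -0.13 ± 0.21), and the H2A enzyme Usp16 had -0.16 ± 0.20 and 0.08 ± 0.15. The smallest adjusted p in the group was 0.446 in footprints and 0.438 in total RNA.

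Members of DNA repair and the cell cycle (6 genes) had medians of -0.08 (footprints) and -0.11 (total RNA), and 0 passed (0% of all genes). Besides Usp28 and Usp47, Usp1, which removes ubiquitin from PCNA and Fancd2, was slightly lower in every knockdown library, with footprints of 103 and 119 against 122 and 143 CPM and total RNA of 180 and 182 against 199 and 208 CPM. That is 83.5% and 89.1% of control (-0.26 ± 0.17 and -0.17 ± 0.13, adjusted p = 0.563 and 0.587). The other 2 enzymes that need Wdr48 had positive footprint values. Usp12 had footprints of 23.2 and 17.7 against 15.0 and 14.6 CPM (0.43 ± 0.23) and Usp46 had overlapping groups (0.03 ± 0.27). Wdr48 itself had -0.22 ± 0.19 in footprints and 0.17 ± 0.13 in total RNA.

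The enzymes of ubiquitin recycling were 3, Usp5, Usp13 and the proteasome-bound Usp14, and 0 passed (0% of all genes). Usp14 had footprints of 149 and 237 CPM in the knockdown against 198 and 265 CPM, with overlap, and total RNA of 133 and 141 against 120 and 146 CPM. Usp5, which takes apart free ubiquitin chains, had footprints of 238 and 301 against 317 and 287 CPM. Usp14, Usp8 and Usp15 shared with Usp9x a low value in footprint knockdown replicate 1 that replicate 2 did not have, at 88.7 against 136 CPM for Usp8 and 115 against 171 CPM for Usp15. Without that library the sign of each turned, to 0.04, 0.07 and 0.06 respectively. Of the 47 members 12 had their lowest footprint level in that library, and 29 were lower there than in replicate 2. The shares over all genes were not counted, so these counts do not set the members apart from other genes.

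Members of endosomes, membranes and mitochondria (6 genes measured) had medians of 0.09 and 0.04, and 0 passed (0% of all genes). Usp19, which is anchored in the endoplasmic reticulum, had footprints of 201 and 231 against 186 and 166 CPM (0.30 ± 0.16) and total RNA of 162 and 170 against 139 and 118 CPM (0.37 ± 0.14, adjusted p = 0.317). Usp30, the mitochondrial member that opposes mitophagy, had 0.01 ± 0.24 and -0.11 ± 0.19. Among the 4 nucleolar and RNA-linked members, Usp36, which works in the nucleolus, had total RNA of 105 and 106 against 90.0 and 63.4 CPM (0.47 ± 0.19, adjusted p = 0.331) and footprints of 80.0 and 68.8 against 60.1 and 61.6 CPM. Usp10, a partner of the stress granule proteins G3bp1 and G3bp2 that also acts on the small ribosomal subunit, had footprints of 237 and 239 against 236 and 196 CPM (0.14 ± 0.17) and total RNA of 327 and 334 against 287 and 259 CPM (0.28 ± 0.13). Of the 3 paralogs Usp4, Usp11 and Usp15, Usp4 was above control and Usp11 below it in every library, while the Usp15 groups overlapped. The 5 members on the X chromosome had medians of -0.35 and -0.16, with Usp27x positive and Usp11 negative in both assays.

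Fold changes in footprints and in total RNA went together across the members. Over 47 members Pearson's r was 0.795 and Spearman's rho 0.753, as a description across genes, which are not independent, and r was 0.655 over all 12358 genes. The 2 values had the same sign in 36 members (76.6%, and 72.1% of all genes). Whether both assays used the same cultures is not in the labels.

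**Figure D3:**
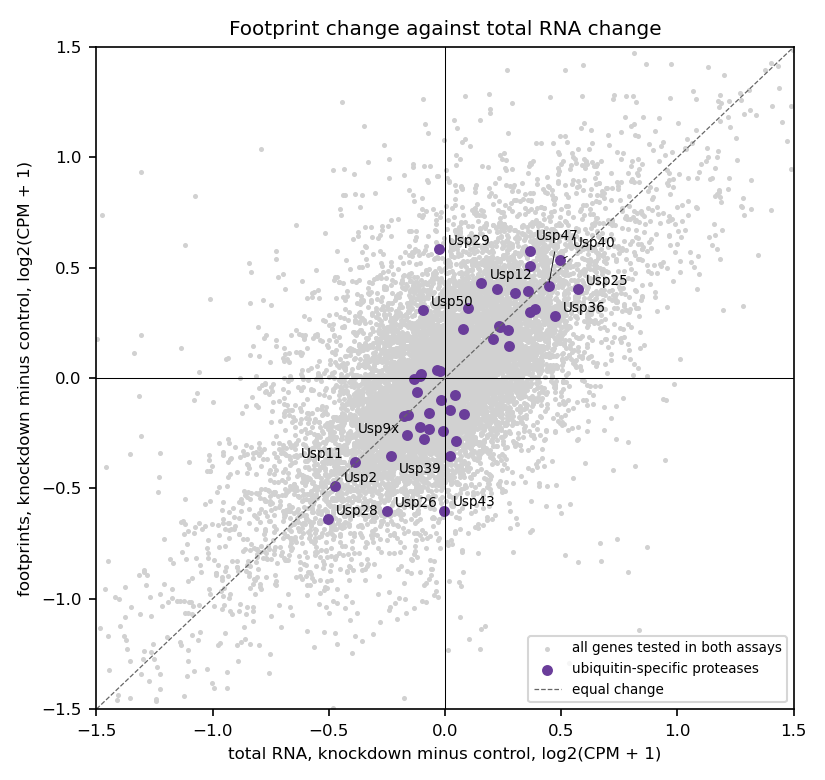
Each point is a gene, with its knockdown minus control difference in total RNA on the x axis and in footprints on the y axis, both on the log2(CPM + 1) scale. Grey points are all genes tested in both assays (76 of 12358 lie outside the plotted range) and purple points the 47 members, which lie along the diagonal. Usp29 and Usp43 stand off it, both with few reads.

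The change in translational efficiency (footprints relative to total RNA) was tested as the interaction of assay and knockdown over all 8 libraries. limma called 0 of 47 members and 0 of 12358 genes (0%), and at an unadjusted p of 0.05 there were 0 members (all genes 1.55%), 0 higher (0.955%) and 0 lower (0.599%). The median over members was -0.03, with 20 of 47 positive (49.2% of all genes), and that over all genes was -0.00. The members' median changed sign with the library left out, from -0.085 without footprint knockdown replicate 2 to 0.045 without total RNA control replicate 2, and was 0.028 without footprint knockdown replicate 1. Usp9x had -0.01 ± 0.27 (adjusted p = 1), so that its footprints and its total RNA differed from control by like amounts. The standard error leaves room for a difference of either sign.

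The 3 members with the smallest p for translational efficiency all had few reads. Usp29, an imprinted gene, had footprints of 1.13 and 2.09 CPM in the knockdown against 0.956 and 0.496 CPM, from 5 to 20 reads per library. Its total RNA overlapped at 0.947 and 1.28 against 0.799 and 1.55 CPM, and the efficiency value was 0.61 ± 0.44 (adjusted p = 1). Usp43 had footprints of 2.03 and 1.57 against 3.61 and 2.87 CPM and total RNA of 3.55 and 3.16 against 4.91 and 2.22 CPM (-0.60 ± 0.44). Usp50 had footprints of 1.35 and 2.09 against 1.27 and 1.09 CPM and total RNA of 3.55 and 3.38 against 3.77 and 3.77 CPM (0.40 ± 0.35). Leaving out 1 library moved the efficiency value from 0.34 to 0.88 for Usp29 (knockdown footprint replicate 2 or 1 left out), from -1.04 to -0.16 for Usp43 (total RNA control replicate 1 or 2) and from 0.20 to 0.60 for Usp50 (knockdown footprint replicate 2 or 1). At this depth changes of such genes were not separable from the spread between libraries.

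In control cells the members' median ratio of footprints to total RNA was below that of all genes. Single members lay on both sides of it, up to percentile 94.7 for Usp14. Among genes with at least 10 CPM in both tables, the ratio of mean footprint CPM to mean total RNA CPM had a median of 0.661 over 35 members, with quartiles of 0.555 and 0.95, and of 0.856 over 7944 genes, with quartiles of 0.619 and 1.14. The ratio was below 1 for 29 of 35 members (82.9%, and 63.3% of all genes). The members' median was 0.649 from control replicate 1 and 0.689 from replicate 2, beside 0.861 and 0.849 over all genes, and 0.686 in the knockdown beside 0.842. This comparison is a description with no test. The tables were normalised separately, so the ratio is relative, and total RNA reads also cover untranslated regions, whose length was not measured here.

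Usp31 had the lowest ratio, at 0.141 and 0.264 in control replicates 1 and 2, followed by Usp12 at 0.259 and 0.297. At the other end Usp14 had 1.65 and 1.81, Usp19 had 1.33 and 1.40, and Usp5 had 1.48 and 1.07. Usp9x lay in the lower part of all genes, at 0.736 and 0.584 (percentile 28.7 of 7944 genes), and in the knockdown at 0.57 and 0.747. The large enzymes Usp34 (0.426 and 0.454) and Usp24 (0.466 and 0.534) were lower still, and the paralogs Usp4 (0.918 and 1.02), Usp11 (1.02 and 1.13) and Usp15 (1.07 and 0.911) were near 1. The replicate values of Usp5 and Usp19 overlapped, as did those of Usp9x and its neighbours Usp1 and Usp30.

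**Figure D4:**
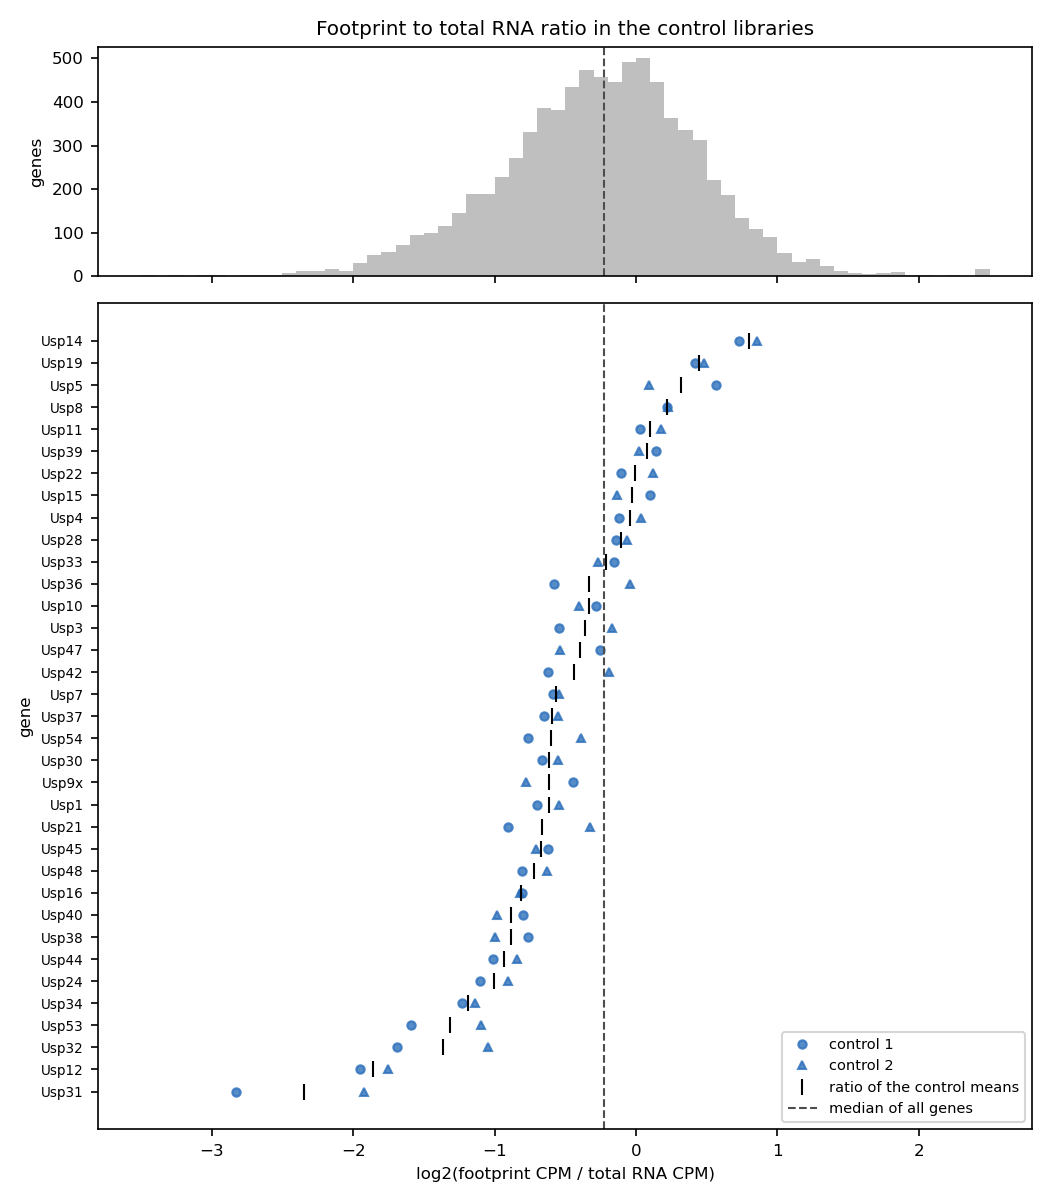
The upper panel is a histogram of the log2 ratio of footprint to total RNA CPM over 7944 genes in the control, with values beyond the axis gathered in the end bars. The lower panel gives the ratio of each of 35 members in control replicate 1 (circles) and 2 (triangles) and from the control means (black ticks). Most members lie left of the dashed median of all genes, from Usp31 at 0.196 to Usp14 at 1.74 before taking logs.

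Other genes of the pathway were taken from lists of the remaining deubiquitinase families and of the enzymes that attach ubiquitin. They had 0 calls by limma in either assay as well, where 0% of all genes were called. Of 12 measured cofactors of Usp enzymes, 9 were positive in footprints and 11 in total RNA (medians of 0.20 and 0.12). Eny2, an adaptor that Usp22, Usp27x and Usp51 need, had footprints of 54.9 and 77.8 against 42.9 and 50.0 CPM (0.49 ± 0.21, adjusted p = 0.375) and total RNA of 0.10 ± 0.23. The 4 UCH enzymes had medians of -0.25 in both assays. Uchl1 was lower in every knockdown library, with total RNA of 58.1 and 58.0 against 79.9 and 87.1 CPM (-0.52 ± 0.13, adjusted p = 0.175).

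OTU enzymes (16 measured) had a median of 0.19 in footprints and -0.04 in total RNA. Otulin, which cuts linear ubiquitin chains, had the largest footprint difference of the deubiquitinases examined. It was at 96.8 and 63.2 CPM against 36.0 and 19.8 CPM (1.51 ± 0.30, limma adjusted p = 0.115). Over the 16 OTU enzymes as a list, the highest total RNA value was 0.50, which need not be that of Otulin. Their highest translational efficiency value was 1.22, and limma called 0 of the 16 there (0% of all genes). Josephin enzymes (3 measured) had medians of -0.33 and -0.15, metalloproteases of the JAMM type (12) of -0.00 and 0.01, and the MINDY and ZUP1 group (5) of -0.00 and -0.03. In the last group Mindy1 was lower in both assays, at 37.0 and 34.4 against 61.3 and 58.0 CPM in footprints (-0.72 ± 0.17, adjusted p = 0.156). Of 3 genes of the same protease fold outside the symbol rule, 2 were positive in footprints (median 0.02), and 4 had a median of -0.02 in total RNA. The 6 ubiquitin and E1 genes had medians of -0.17 and -0.04, and the 32 conjugating enzymes (E2) of -0.01 and 0.07.

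In total RNA the number of calls depended on which control library was kept. Without control replicate 1 limma called 25 of 48 members, 18 higher and 7 lower, where it called 46.1% of all genes, and without control replicate 2 it called 15, 9 higher and 6 lower (25.4% of all genes). With 1 control library, the fit takes its spread from the knockdown pair. The knockdown libraries of total RNA lay close together (SD of their difference over 40 members with at least 10 CPM 0.102 on the log2 scale), while the control libraries lay apart (0.288). In footprints the SD was 0.323 between knockdown and 0.234 between control libraries over 35 members. Of the 48 members 25 overlap another gene in RefSeq (GRCm38.p6), among them Usp34 with Ahsa2 and Usp40 with Dgkd. The overlap was taken over whole gene spans, introns included, and the share over all genes was not counted. The labels do not state the counting strand, and whether reads of such neighbours entered the counts was not tested.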

How the data were processed

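Footprints and total RNA were measured in 8 libraries. The authors deposited library columns of signal on the CPM scale (reads per gene over an effective library size), with their own log2 fold changes, likelihood ratio scores and p-values. Per the submitters' processing notes, the tools were Bowtie 1.2.3, TopHat2 2.1.1, HTSeq 0.11.2 and edgeR 3.26.8 with build mm9, with no role given. Values were whole multiples of 1 read for 100% of genes (tolerance 0.01 read). Reads of RPF control 2 entered the filter and the depth but no count test, because the value of 1 read there lies too near a round number for the recovery to be checked.

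limma 3.58.1 (R 4.3.3) was fitted on log2(CPM + 1) within each assay over all genes (eBayes with trend), and p-values were adjusted by Benjamini-Hochberg, threshold 0.05. Folds of genes with few reads are understated on this scale. Genes were kept by filterByExpr of edgeR 4.0.16 (minimum count 10, minimum total 15). Named genes were Usp9x, the 6 members with the smallest p in each assay and the 3 for translational efficiency. Other members named were chosen after their values were seen. A part of the rule on levels per coding length could not be applied without lengths. Members and lists were chosen with earlier results of these data known. Only the limma fit within each assay was tested on simulated data, with log2 changes larger than those of any member. P-values measure the spread between libraries only.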

Additional observations from a re-analysis of the deposited data

How the results depend on the processing

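With 1 library left out, where the lone library is assumed to vary like the other group, the count of members called by limma was 0 to 25 in total RNA. The share of all genes called in total RNA rose in these fits as well, as given above, and the members were not tested against it. The members' median log2 fold change was then 0.0092 to 0.11 in footprints and -0.0084 to 0.11 in total RNA. The members whose groups did not overlap then numbered 31 to 42 in total RNA, since fewer libraries make overlap rarer (59.4% to 88.7% of all genes). Usp9x ranged from -0.40 to 0.064 in footprints, from -0.30 to -0.017 in total RNA and from -0.24 to 0.22 in translational efficiency. In total RNA Usp42 ranged from -0.0073 to 0.61, Usp29 from -0.28 to 0.23 and Usp43 from -0.44 to 0.43. Centring on the median turned the members' total RNA median to -0.0068, with all genes then at -0.03, the Usp9x efficiency to 0.026 and the members' efficiency median to 0.0030, with all genes at 0.028. A pseudocount of 0.5 CPM turned Usp43 in total RNA to 0.0053. The cause of these changes of sign was not tested. The replicate number was also fitted as a block. Across 8205 genes in footprints, the difference between replicates 1 and 2 in the knockdown correlated with that in the control at 0.231. In total RNA the same correlation was -0.275, over 9013 genes. The block left 0 members called in footprints, total RNA and efficiency, while calls over all genes went from 0 to 21, 636 and 1. A crossed block in total RNA, added after seeing the data, called 0 members and 924 genes. In the alternatives run in footprints and efficiency 0 members were called, where all genes called were at most 89 in footprints (0.72%, all 8 libraries in 1 fit; 57 or 0.446% without RPF KD replicate 1) and at most 1 in efficiency. The sign held in all alternatives for 35 of 47 members in footprints and 27 of 48 in total RNA. Several alternatives leave every fold change as it was by design, so these counts largely restate which groups did not overlap. edgeR on footprints was run without RPF control 2 only, with 0 members called. Depth limits members below 5 CPM, 6 in footprints and 5 in total RNA.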
